A study of Mus musculus with 6 samples.

Results

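Scml2, Efhc2, Usp26, Magea4, Cox7b2, Ccdc172, Wbp2nl, Lrriq4 and Dnah17 are 9 genes, most of them best known from the testis or sperm, whose RNA was measured here in mouse induced pluripotent stem cells (iPSCs) with and without Tet1. They were picked by name from a deposited table of 48440 genes, selected on their measured levels, which were much lower in every Tet1 knockout clone than in non-targeted clones. The level and the fold change between these groups are therefore given as a description only, with no test. All 9 were among the 14664 genes that passed the filter on low counts. No testis sample was analysed here, so "testis-type" describes what is known of the genes elsewhere and was not measured here.

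The knockout libraries came from 3 clones with a Cas9 knockout of Tet1 (clones 14, 30 and 33, replicates 1 to 3, genotype wt/wt;GFP/wt with Tet1 Cas9 mut/mut), and the libraries set against them from 3 non-targeted clones (clones 49, 51 and 52, replicates 1 to 3, genotype wt/wt;GFP/wt). All 6 clones derive from a male iPSC line named iPSC34.3, whose strain label combines B6- Tet1tm1Kohx with the Pou5f1-EGFP reporter B6;CBA-Tg(Pou5f1-EGFP)2Mnn/J. The line was kept for 14 passages, received Cas9 protein, guide RNA to Tet1 and donor oligonucleotide (single-stranded), was kept for 12 h in a repair enhancer, and was picked and grown for 4 more passages. For non-targeted clones the labels carry the same text, without saying how their treatment differed. The clones were expanded on embryonic fibroblast feeders and taken off them before polyadenylated RNA was sequenced. Each library stands for another clone of this line, so the spread reported, and any p-value, measures differences between clones of the same origin.

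Tet1 oxidises 5-methylcytosine, the methylated base of CpG dinucleotides, and methylation of a promoter is known to keep many germline genes silent in other tissues. In pluripotent cells, a Polycomb complex that binds through MGA and MAX at E-boxes and through E2F6 at E2F sites is a further known repressor of germline genes. The 9 genes fall into several roles in the male germ line. Scml2, Usp26 and Magea4 encode proteins of chromatin and ubiquitin control, Cox7b2 a subunit of the respiratory chain, and Efhc2, Ccdc172, Wbp2nl and Dnah17 parts of the sperm cell, mostly of its tail. Lrriq4 encodes a protein with leucine-rich repeats and IQ motifs.

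The libraries held 11937909 to 16189554 counts, so that 1 count stood for 0.062 to 0.083 CPM (counts scaled by library size and TMM factors). Tet1 itself had 365, 231 and 288 CPM in knockout clones, against 1158, 966 and 1034 CPM in non-targeted clones, a log2 fold change of −1.84 ± 0.16 (SE) with an adjusted p of 0.0703 by edgeR's quasi-likelihood test and 9.06e-20 by DESeq2. Pluripotency markers were high in both groups: Pou5f1 had 684 ± 8.54 CPM in knockout clones and 780 ± 59.6 CPM in non-targeted ones (SD, n = 3 each), and none of the 10 markers was called by edgeR or DESeq2. Other markers spread widely among knockout clones: Nanog had 471, 284 and 112 CPM there, against 564, 473 and 462 CPM in non-targeted clones, and Klf4 had 622, 221 and 122 CPM against 593, 438 and 531 CPM. Of the 10 markers, 9 had a log2 fold change below 0 (median −0.23), and their median per library was lowest in knockout replicate 3 at −0.47 on the log2 scale. Without knockout replicate 1, edgeR called 7 of these markers fallen and 0 risen, beside 14% and 15.1% of all genes tested in that fit. Fibroblast markers moved with the groups. Of 29 tested, 20 (69%) were higher in all knockout clones, beside 14.8% of all genes tested. By DESeq2 15 markers rose, beside 5.77% of all genes it tested, and the median log2 fold change was 1.20. The number called by DESeq2 was 23 (22 of them risen), 10 and 3 without knockout replicates 1, 2 and 3. Without non-targeted replicates 1, 2 and 3 it was 0, 9 and 2. Their median per library, as log2 differences to the mean of the non-targeted clones, was 0.59, 0.70 and 1.81 in knockout replicates 1 to 3, against −0.31, 0.21 and 0.12 in non-targeted replicates. The summed level of the list, 2113 to 2751 CPM in knockout and 2132 to 2505 CPM in non-targeted clones, overlapped. Fn1 alone averaged 996 CPM in knockout clones and 1330 CPM in non-targeted ones. No fibroblast marker was at 0 in any library. The median of the 9 genes, on the same scale, was −1.86, −2.30 and −2.97 in knockout replicates, against 0.54, −0.28 and −0.22 in non-targeted replicates. The part of the fibroblast and pluripotency markers in the levels below was not tested, and fewer cells that make an RNA cannot be told apart from less of it per cell in these bulk libraries.

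All 9 genes had no overlap between the groups, as the choice of members required, where 14.7% of the 14664 genes tested were lower and 14.8% higher in all 3 knockout clones. Among all genes, DESeq2 called 3.35% fallen and 5.77% risen at an adjusted p of 0.05, and the 9 genes were among the fallen by choice. edgeR called 0% after adjustment, with 24.8% of genes under 0.05 before adjustment, while limma voom called 1 gene and DESeq2 1247. Without knockout replicate 1, edgeR called 14% of 15140 genes fallen and 15.1% risen. The knockout mean of the members was between 12.8% and 26.4% of the non-targeted mean.

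Among the genes of chromatin and ubiquitin control, all of them on chromosome X, Scml2 encodes a Polycomb protein of the male germ line. It is counted over chrX:161117193-161258213 (GRCm38, plus strand). It had 4.91, 4.47 and 2.23 CPM in knockout clones, against 34, 16.1 and 14.3 CPM in non-targeted clones. Every knockout clone lay below every non-targeted clone, and non-targeted replicate 1 stood well above the other two. The log2 fold change was −2.48 ± 0.43 (SE), and the counts behind it were 64, 54 and 31 against 425, 258 and 206.

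Usp26, which encodes a deubiquitinase known from the testis, is counted over chrX:51753959-51801233 on the minus strand. Its level was 1.92, 4.72 and 0.935 CPM in knockout clones, against 24.3, 13.5 and 8.41 CPM in non-targeted clones. Knockout replicate 2 was the highest of its group and replicate 3 the lowest, with a spread of 5.05 times between them, and non-targeted values spanned 2.89 times. The log2 fold change of Usp26 was −2.62 ± 0.60 (SE).

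Magea4 belongs to the MAGE family of cancer-testis antigens, which bind E3 ubiquitin ligases. The gene is a single exon at chrX:72222017-72222964 on the plus strand. Counts were few, 4, 6 and 1 in knockout clones and 40, 32 and 23 in non-targeted clones. On the CPM scale these are 0.307, 0.496 and 0.0719 in knockout clones, against 3.23, 2.00 and 1.6 in non-targeted clones. The groups did not overlap, and with −2.95 ± 0.56 (SE) Magea4 had the lowest log2 fold change of the 9 genes.

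Efhc2, also on chromosome X (chrX:17132049-17319368, minus strand), encodes an EF-hand protein of axonemal microtubules. It had 2.30, 2.32 and 1.37 CPM in knockout clones, against 18.6, 9.30 and 10.4 CPM in non-targeted clones. The knockout clones lay close together, and the lowest non-targeted clone was 4.01 times the highest knockout clone. Its log2 fold change was −2.67 ± 0.35 (SE).

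Of the sperm tail genes on autosomes, Dnah17 (chr11:118021723-118129219, minus strand) encodes a heavy chain of the outer dynein arm, which is needed for the sperm flagellum in mouse and human. Its level was 2.38, 1.08 and 0.503 CPM in knockout clones, against 5.08, 4.06 and 5.84 CPM in non-targeted clones. The 3 knockout clones differed by 4.72 times while the non-targeted clones differed by 1.44 times. The log2 fold change of −1.92 ± 0.49 (SE) is the smallest in size among the 9 genes.

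Ccdc172 (chr19:58512002-58553085, plus strand) encodes a coiled-coil protein that binds tektin 2 in the rat sperm tail. It gave 13, 0 and 5 counts in knockout clones, against 56, 22 and 27 counts in non-targeted clones, or 0.997, 0 and 0.360 CPM against 4.52, 1.37 and 1.88 CPM. The count of 0 in knockout replicate 2 allows up to 0.248 CPM (3 counts). Knockout replicate 1 and non-targeted replicate 2 were the closest pair between the groups, with the non-targeted one 1.38 times as high. The log2 fold change, −2.46 ± 0.85 (SE), had the widest error of the 9.

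Wbp2nl (chr15:82298984-82314558, plus strand) encodes a WW-domain binding protein of the sperm head. Its level was 0.920, 0.414 and 0.503 CPM in knockout clones, against 3.47, 2.18 and 2.36 CPM in non-targeted clones. Knockout replicate 1 and non-targeted replicate 1 were the highest of their groups, which did not overlap. The log2 fold change was −2.1 ± 0.39 (SE).

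Cox7b2 (chr5:71442824-71548205, minus strand) encodes the testis form of a subunit of cytochrome c oxidase. It had 0.537, 0.248 and 0.288 CPM in knockout clones, against 2.34, 2.18 and 2.50 CPM in non-targeted clones, from 7, 3 and 4 counts against 29, 35 and 36. The non-targeted clones differed by 1.15 times, the narrowest spread of any member in either group. Its log2 fold change was −2.68 ± 0.36 (SE).

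Lrriq4 (chr3:30644507-30672431, plus strand) had 1.99, 0.662 and 0.431 CPM in knockout clones, against 5.41, 2.75 and 4.38 CPM in non-targeted clones. Knockout replicate 1 was 4.62 times replicate 3 and came within 1.38 times of non-targeted replicate 2. The log2 fold change was −2.01 ± 0.55 (SE).

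**Figure D1:**
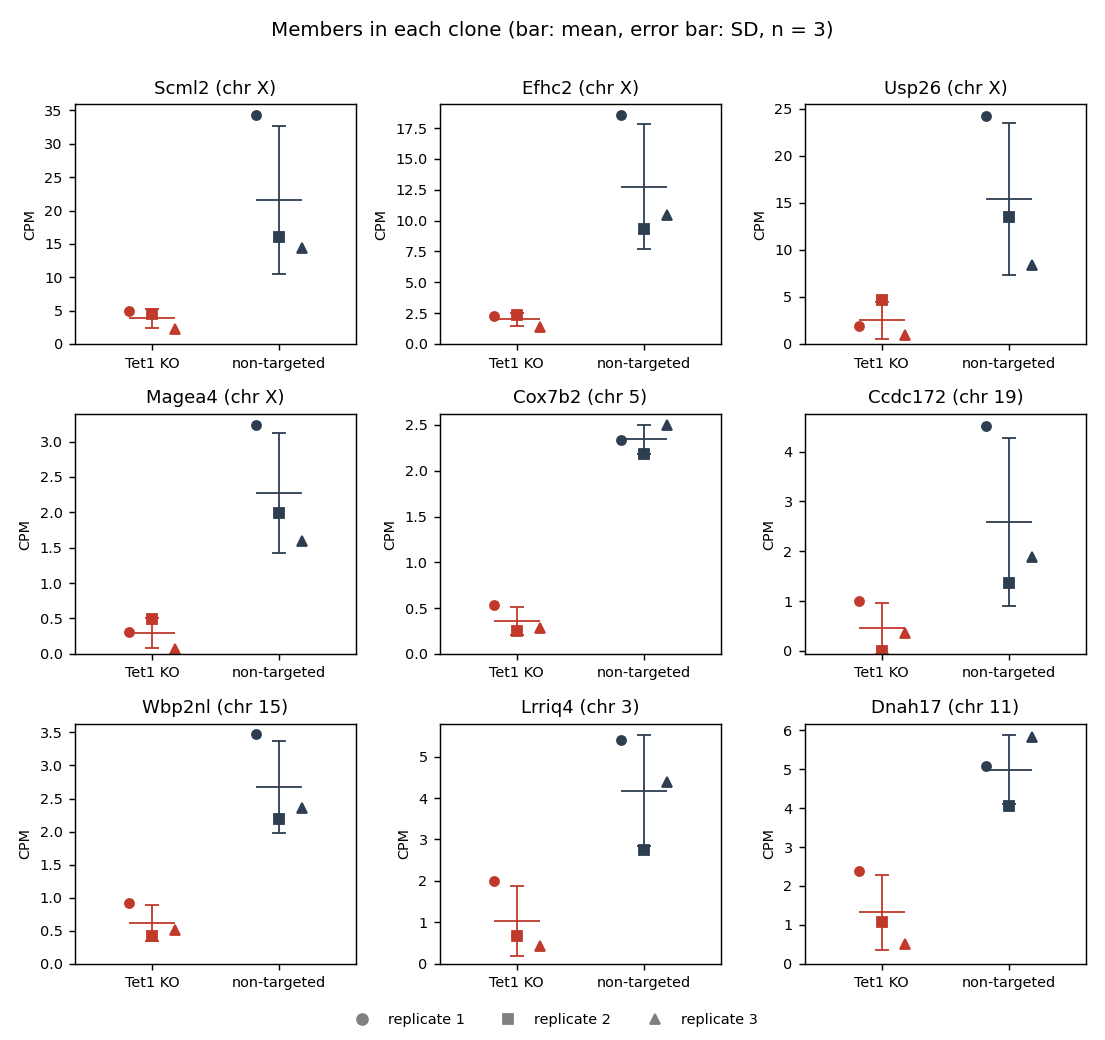
Level of the 9 genes in CPM in the 3 Tet1 knockout clones (left) and the 3 non-targeted clones (right), with symbols for replicates, a horizontal bar at the mean and SD error bars (n = 3). All knockout points lie below all non-targeted points of the same gene, and replicate 1 is the highest non-targeted point for 7 genes.

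Just inside the choice of members, Dnah17 had a DESeq2 log2 fold change of −1.93. Next among the genes that DESeq2 called, with no overlap, a mean of at least 1 CPM and no predicted model, were Pax8 at −1.88, Tgm3 at −1.86, Hmcn2 at −1.85, Tet1 at −1.84 and D1Pas1 at −1.83. Under the same conditions, a larger DESeq2 fall than any member's belonged to Asz1 at −3.31, a germ cell gene outside the 9, which was named after its value was seen. Without these conditions, the 9 genes held ranks between 7 and 25 by edgeR fall among all 14664 genes tested. The predicted gene Gm15262, at −3.69 by edgeR, fell more than any member.

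Which clones were highest and lowest differed between members. Knockout replicate 3 was the lowest for 6 genes and replicate 2 for 3 (Cox7b2, Ccdc172 and Wbp2nl), while non-targeted replicate 1 was the highest for 7. The X-linked members summed to 9.43, 12.0 and 4.60 CPM in knockout clones, against 80.4, 40.9 and 34.8 CPM in non-targeted clones. The autosomal members summed to 6.82, 2.40 and 2.09 CPM in knockout clones, against 20.8, 12.5 and 17.0 CPM in non-targeted clones. In the sums, knockout replicate 2 was the highest of its group for the X-linked genes, and replicate 1 for the autosomal genes. The X-linked lead of replicate 2 came mostly from Usp26, with 4.72 CPM there against 1.92 CPM in replicate 1. Scml2 was higher in replicate 1 (4.91 against 4.47 CPM), and Efhc2 was nearly level (2.30 and 2.32 CPM).

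After the group means were taken off the log2 CPM, Pearson's r over the 6 libraries ran from 0.78 to 0.97 in the 6 pairs of X-linked members, with a median of 0.88. In the 10 autosomal pairs it ran from 0.41 to 0.93, with a median of 0.81, and in the 20 mixed pairs from −0.26 to 0.67, with a median of 0.30. Scml2 and Efhc2 were the closest pair (0.97), and Usp26 and Ccdc172 the farthest (−0.26). The values of the kinds of pairs overlapped: Scml2 and Efhc2 had 0.60 to 0.67 with Wbp2nl and Lrriq4, above the 0.41 of the autosomal pair Ccdc172 and Dnah17, and the lowest mixed values involved Usp26 and Magea4. The difference between X-linked and autosomal members was not tested. These values are descriptions, since all pairs share the same 6 libraries and their depth. They also hold counting error where counts are few. In knockout clones Magea4 had 4, 6 and 1 counts and Ccdc172 had 13, 0 and 5.

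**Figure D2:**
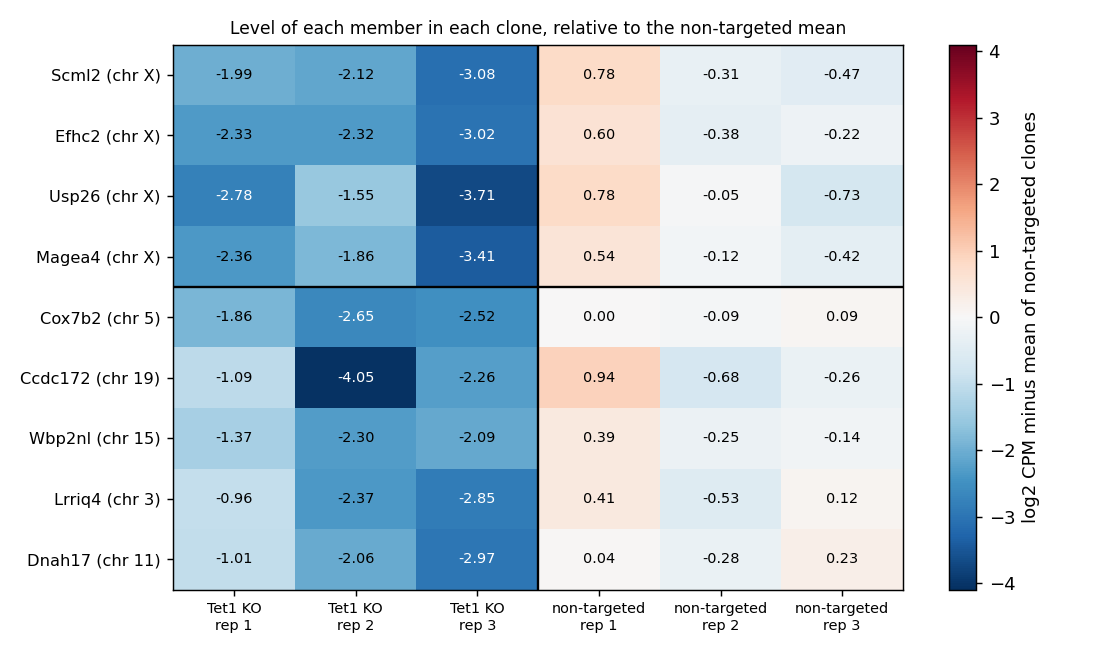
Log2 CPM (with a prior count of 2) of each gene in each clone minus the mean of the non-targeted clones, with knockout clones on the left, non-targeted clones on the right, and X-linked genes above the line. Knockout replicate 3 is the darkest column for the X-linked genes, Lrriq4 and Dnah17, and Ccdc172 in knockout replicate 2, with 0 counts, is the lowest value.

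Levels were compared between the genes as CPM per kilobase of merged exons (GENCODE M21). In the knockout clones the order ran from Efhc2 at 0.781 ± 0.213 through Cox7b2 at 0.660 ± 0.289, Scml2 at 0.636 ± 0.236 and Usp26 at 0.610 ± 0.475 to Wbp2nl at 0.433 ± 0.191, Ccdc172 at 0.411 ± 0.459, Lrriq4 at 0.373 ± 0.305, Magea4 at 0.308 ± 0.224 and Dnah17 at 0.0818 ± 0.0595 (SD, n = 3). In the non-targeted clones it ran from Efhc2 at 5.0 ± 1.98, Cox7b2 at 4.32 ± 0.294, Usp26 at 3.73 ± 1.96 and Scml2 at 3.55 ± 1.82 to Magea4 at 2.40 ± 0.896, Ccdc172 at 2.36 ± 1.54, Wbp2nl at 1.89 ± 0.493, Lrriq4 at 1.51 ± 0.486 and Dnah17 at 0.310 ± 0.0555. Neighbours in either order overlapped between clones, except Lrriq4 and Dnah17 in the non-targeted group. The authors counted reads over whole gene bodies, of which exons make 0.514% in Cox7b2 and 100% in Magea4, and per kilobase of gene body Magea4 came first and Cox7b2 last in both groups.

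RefSeq promoter windows (GRCm38.p6, 250 bases before to 50 after a start) were found for 8 of the 9 genes, with 2 starts for Lrriq4, and none for Wbp2nl. None of these 9 windows was CpG-rich, taken as an observed over expected CpG ratio of at least 0.6 with at least 50% GC, against 33.5% of 32851 windows. Several were near this cut. Ccdc172 had a ratio of 0.79 and missed it by its GC of 48.7%. The downstream Lrriq4 start had 0.57 (57.0% GC), Cox7b2 0.56 (48.7% GC) and Scml2 0.53 (57.3% GC). Usp26 had 0.40 and the remaining windows less, where the median of all windows was 0.38. CpG counts ran from 0 at the upstream Lrriq4 start, 2 at Magea4, 4 at Efhc2 and Dnah17 and 5 at Usp26 to 10 at Cox7b2, 13 at Scml2 and 14 at Ccdc172 and the downstream Lrriq4 start, where the median of all windows was 7. Scml2 and Magea4 are printed here as the CpG-denser and the CpG-poor end among the X-linked genes of chromatin and ubiquitin control, 5′ to 3′ on the gene's strand with CpG dinucleotides in capitals. The Scml2 window (chrX:161162500-161162799, plus strand) belongs to a start 45557 bases inside the counted gene. The Magea4 window is chrX:72221767-72222066, plus strand.
Scml2: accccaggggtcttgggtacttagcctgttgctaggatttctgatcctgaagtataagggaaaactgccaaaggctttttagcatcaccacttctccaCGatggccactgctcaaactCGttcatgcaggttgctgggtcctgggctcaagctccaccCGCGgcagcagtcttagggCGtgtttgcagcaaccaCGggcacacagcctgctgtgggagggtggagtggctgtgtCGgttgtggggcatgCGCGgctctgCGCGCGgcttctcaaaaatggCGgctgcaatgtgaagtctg
Magea4: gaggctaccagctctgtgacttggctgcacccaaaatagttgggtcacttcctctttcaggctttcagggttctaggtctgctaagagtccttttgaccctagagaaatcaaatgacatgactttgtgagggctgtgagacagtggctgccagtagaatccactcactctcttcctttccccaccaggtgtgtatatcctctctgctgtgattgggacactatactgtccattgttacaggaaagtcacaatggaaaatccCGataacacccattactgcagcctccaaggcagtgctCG

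Windows were also searched on both strands for CACGTG (the E-box of MAX and MGA), GCGGGA (an E2F type) and TGACG (part of a cAMP response element). The motifs do not overlap each other in the windows printed. CACGTG was present in 1 of the 9 windows, that of Ccdc172, against 7.2% of all windows. GCGGGA and TGACG were each present in 1, that of Cox7b2, against 20.0% and 20.8% of all windows. Both windows are printed with these matches in capitals, as the ones that hold any. Ccdc172 lies at chr19:58511735-58512034, plus strand, and Cox7b2 at chr5:71548156-71548455, minus strand, where the TGACG match reads as its reverse complement CGTCA. A match of this length is a description of the letters and not a binding site.
Ccdc172: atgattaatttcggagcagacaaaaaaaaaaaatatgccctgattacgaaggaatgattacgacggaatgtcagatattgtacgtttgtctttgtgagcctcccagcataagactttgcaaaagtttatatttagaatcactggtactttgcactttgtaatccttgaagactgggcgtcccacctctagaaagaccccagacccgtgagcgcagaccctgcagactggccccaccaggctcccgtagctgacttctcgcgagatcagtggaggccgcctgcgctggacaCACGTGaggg
Cox7b2: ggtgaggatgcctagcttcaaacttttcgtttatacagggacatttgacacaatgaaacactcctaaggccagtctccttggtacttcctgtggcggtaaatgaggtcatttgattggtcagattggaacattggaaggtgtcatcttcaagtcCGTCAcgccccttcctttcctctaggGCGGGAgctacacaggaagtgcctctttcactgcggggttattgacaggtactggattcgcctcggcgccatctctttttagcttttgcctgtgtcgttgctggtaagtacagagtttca

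**Figure D3:**
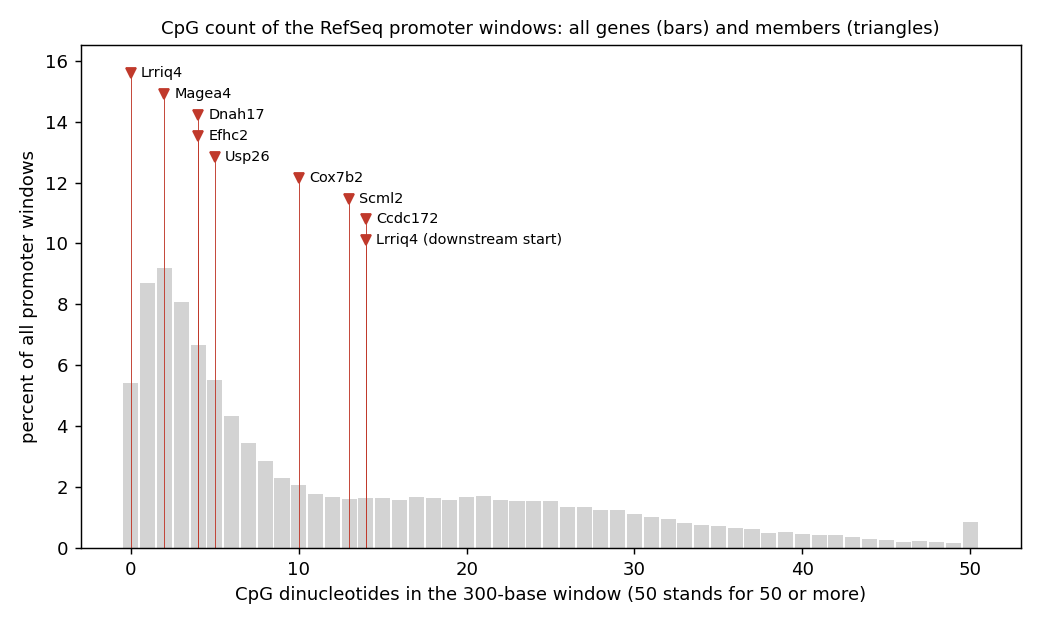
Share of all RefSeq promoter windows (percent, bars) by the number of CpG dinucleotides in the 300-base window, with triangles at the windows of the 9 genes (none for Wbp2nl). The windows of the members lie between 0 and 14 CpG, on both sides of the median of 7.

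The paralogs of the 9 genes, widely expressed ones and the testis-type Magea genes among them, were compared next. Of 23 paralogs, 11 were tested, and edgeR called 0 of them, with 3 at an unadjusted p under 0.05. DESeq2 called 1, Sfmbt2, an MBT-domain protein related to Scml2, which rose by DESeq2 with 226 ± 58.8 CPM in knockout clones and 141 ± 18.6 CPM in non-targeted ones (SD, n = 3 each; log2 fold change 0.68 ± 0.18 SE, adjusted p = 0.0189 by DESeq2 and 0.122 by edgeR). The median log2 fold change was 0.01, beside 0.00 over all genes tested, and 2 were lower (18.2%) and 1 higher (9.09%) in all knockout clones, beside 14.7% and 14.8% of all genes. The Sfmbt2 call was lost without knockout replicate 3 and without non-targeted replicates 1 and 3, with DESeq2 adjusted p = 0.101, 0.160 and 0.229.

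Cox7b, the ubiquitous form of the Cox7b2 subunit, averaged 105 ± 1.53 CPM in knockout clones and 113 ± 5.41 CPM in non-targeted ones, and its log2 fold change was −0.11 ± 0.07 (SE). Wbp2, the widely expressed relative of Wbp2nl, averaged 106 ± 8.58 and 108 ± 5.60 CPM in those groups, with −0.04 ± 0.09. Usp37 averaged 167 ± 14.8 CPM in knockout clones and 166 ± 10.2 CPM in non-targeted ones, with 0.01 ± 0.09, and Usp29 had −0.38 ± 0.34. None of these 4 relatives of the members was called by either tool (edgeR adjusted p from 0.354 for Cox7b to 0.967 for Usp37).

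Among the other Scml2 relatives, L3mbtl2, a subunit of the Polycomb complex that holds MGA, had −0.29 ± 0.08 and L3mbtl3 had 0.99 ± 0.36, with DESeq2 adjusted p = 0.0555 and 0.0590. Scmh1 had 0.12 ± 0.14, Sfmbt1 0.20 ± 0.12, L3mbtl1 0.28 ± 0.42 and Scml4 −0.06 ± 0.62 on the same scale. Scml1 and L3mbtl4 did not pass the filter. Lrriq1 and Lrriq3, the relatives of Lrriq4, also had too few counts to be tested, with 9, 5 and 10 counts for Lrriq1 in knockout clones against 4, 20 and 4 in non-targeted clones.

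The Magea relatives of Magea4 were almost silent, and near-identical copies can lose reads in such a family, so their counts are uncertain. Magea1, Magea2, Magea3 and Magea5 had 0 counts in all 6 libraries. Magea10 had 0, 0 and 0 counts in knockout clones against 2, 3 and 3 in non-targeted clones, and Magea8 had 0, 1 and 0 against 6, 1 and 0, while Magea6 had 0, 0 and 0 against 1, 0 and 1. Mageb4, an X-linked MAGE gene outside the filter, had 1 count in each knockout clone and 10, 7 and 8 counts in non-targeted clones. Other untested MAGE genes did not go this way: Mageb3 had 3, 1 and 6 counts against 2, 2 and 5, and Mageb18 had 0, 2 and 1 against 1, 0 and 0. Those counts are few, and no fold was computed from them.

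Of 15 MAGE genes outside the Magea group, 8 were tested and neither tool called any, with 3 at an unadjusted p under 0.05 by edgeR, and their median log2 fold change was 0.23. Magel2 had 0.537, 4.47 and 3.31 CPM in knockout clones, against 0.403, 1.06 and 0.487 CPM in non-targeted clones, and those groups overlapped. Ndn had 7.81 ± 0.421 CPM in knockout clones and 5.68 ± 0.411 CPM in non-targeted ones, with a log2 fold change of 0.46 ± 0.17 and an edgeR adjusted p of 0.162. Of the 8 tested, 2 (25%) were lower and 2 (25%) higher in all knockout clones, beside 14.7% and 14.8% of all genes tested.

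**Figure D4:**
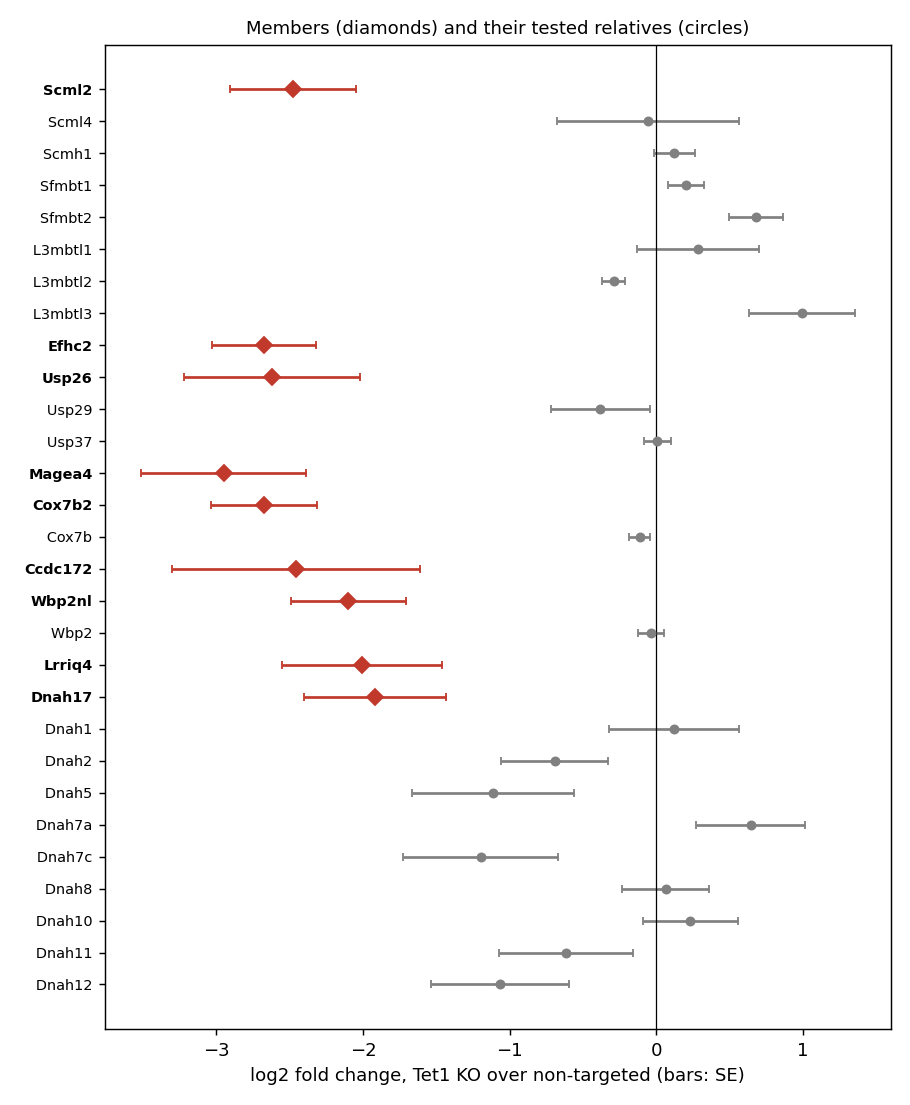
Log2 fold change (Tet1 knockout over non-targeted, edgeR, SE bars) of the 9 genes (diamonds) and of their tested relatives below each (circles), with the tested axonemal heavy chains below Dnah17. The members lie between −2.95 and −1.92, and the relatives between −1.20 (Dnah7c) and 0.99 (L3mbtl3).

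Dnah17 was set beside 42 genes of axonemal dyneins, their docking and their assembly, of which 25 were tested. edgeR called 0 of them, with 3 at an unadjusted p under 0.05, all lower, and DESeq2 called 1. That gene was Ccdc151, which encodes a docking factor of outer dynein arms. It had 1.92, 0.579 and 1.01 CPM in knockout clones, against 2.91, 3.81 and 3.54 CPM in non-targeted clones, and fell by DESeq2 with an adjusted p of 0.0234 (edgeR log2 fold change −1.54 ± 0.41 SE, adjusted p = 0.120). The call was kept without knockout replicate 1 and lost without each other library that could be tested, with DESeq2 adjusted p from 0.147 to 0.233. In this list 5 genes (20%) were lower and 0 higher in all knockout clones, beside 14.7% and 14.8% of all genes tested. The median log2 fold change was −0.03. Without knockout replicate 1, edgeR called 5 of the axonemal genes fallen and 1 risen, beside 14% and 15.1% of all genes tested in that fit.

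Of the other heavy chains, Dnah7c had −1.20 ± 0.53, Dnah5 −1.11 ± 0.55, Dnah12 −1.07 ± 0.47, Dnah2 −0.69 ± 0.37 and Dnah11 −0.62 ± 0.46, while Dnah8 had 0.06 ± 0.30, Dnah1 0.12 ± 0.44, Dnah10 0.23 ± 0.32 and Dnah7a 0.64 ± 0.37 on the log2 scale (SE). Neither tool called any of them, and DESeq2 gave no adjusted p for Dnah7c and Dnah5.

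Of 13 tested subunits of cytochrome c oxidase, edgeR and DESeq2 called 0, with 2 at an unadjusted p under 0.05 by edgeR, and the median log2 fold change was −0.13. Cox6b2, a testis form of another subunit, had 17.5, 9.51 and 7.41 CPM in knockout clones, against 23.0, 16.8 and 21.9 CPM in non-targeted clones. Those groups overlapped between knockout replicate 1 and non-targeted replicate 2. Its log2 fold change was −0.84 ± 0.31 (SE), and that of Cox6a1 was −0.26 ± 0.09, with edgeR adjusted p = 0.165 and 0.143. In this list 4 genes (30.8%) were lower in all knockout clones and 0 were higher, beside 14.7% and 14.8% of all genes tested.

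In a list of 54 X-linked testis genes, of which Gk2 proved to lie on chromosome 5 and was not tested, 26 had a count and 9 were tested. Neither tool called any, with 3 at an unadjusted p under 0.05 by edgeR. Nxf3, an mRNA export factor relative, had 0.230, 0.993 and 0.144 CPM in knockout clones, against 2.1, 1.25 and 2.22 CPM in non-targeted clones (−2.04 ± 0.63 SE on the log2 scale, edgeR adjusted p = 0.133, DESeq2 0.0569). Nxf7 of the same family had 0.920, 2.23 and 2.95 CPM in knockout clones, against 0.726, 0.749 and 0.487 CPM in non-targeted clones (1.63 ± 0.48 SE, edgeR adjusted p = 0.127, DESeq2 0.0669). Of these 9 genes, 1 (11.1%) was lower and 2 (22.2%) were higher in all knockout clones, beside 14.7% and 14.8% of all genes tested. The median log2 fold change was −0.17. The genes of this list outside the filter are not covered by these values. Their counts were few, lower in all knockout clones for Xlr4a and Nxf2 but not for Fthl17a and Xlr3b.

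Over the whole of chromosome X, 562 genes were tested, with a median log2 fold change of 0.013 beside 0.002 over all genes. Of them, 16.9% were lower and 11.6% higher in all knockout clones, beside 14.7% and 14.8% of all genes tested. DESeq2 called 21 of these 562 fallen, the 4 members among them, and 30 risen, beside 3.35% and 5.77% of all genes it tested. edgeR called 0 of the X-linked genes, with 137 at an unadjusted p under 0.05, beside 24.8% of all genes tested.

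Of 48 genes of spermatids and sperm, only 9 were tested, although 41 had a count. DESeq2 called Odf2, a protein of the outer dense fibres that is also known at centrosomes, and no other gene. Odf2 had 276, 218 and 219 CPM in knockout clones, against 309, 322 and 353 CPM in non-targeted clones (fold change −0.46 ± 0.11 on the log2 scale with SE; adjusted p 0.0166 by DESeq2, 0.111 by edgeR), and of the 6 DESeq2 fits that left out 1 library, only that without knockout replicate 1 kept the call, the others giving 0.0759 to 0.228. In this list edgeR called 0, with 2 at an unadjusted p under 0.05, and the median log2 fold change was 0.34. Of the 9 tested, 2 (22.2%) were lower and 1 (11.1%) higher in all knockout clones, beside 14.7% and 14.8% of all genes tested.

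Regulators of earlier germ cells were mostly expressed, with 34 of 39 tested. edgeR called 0, with 13 at an unadjusted p under 0.05 (10 lower and 3 higher), beside 24.8% of all genes tested. DESeq2 called 4 fallen and 3 risen, beside 3.35% and 5.77% of all genes it tested. Tuba3a, a testis tubulin, had 8.07 ± 4.98 CPM in knockout clones and 26.0 ± 5.26 CPM in non-targeted ones (SD, n = 3 each), with a DESeq2 adjusted p of 0.00383. Hormad1, a meiotic chromosome axis protein, had 9.04 ± 3.84 CPM in knockout clones and 19.0 ± 2.44 CPM in non-targeted ones, with a DESeq2 adjusted p of 0.0165. Piwil2 and Slc25a31 also fell by DESeq2. The list's DESeq2 count was 15, 2 and 3 without knockout replicates 1, 2 and 3, and 0, 2 and 0 without non-targeted replicates 1, 2 and 3. Tuba3a was lost without non-targeted replicates 1 and 3 (adjusted p = 0.0796 and 0.120), Hormad1 without any of the non-targeted replicates (0.0528 to 0.190), and Piwil2 and Slc25a31 were kept without knockout replicate 1 only.

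Tdrkh, a factor of piRNA biogenesis, rose by DESeq2, with 5.57 ± 2.18 CPM in knockout clones and 1.88 ± 0.293 CPM in non-targeted ones and an adjusted p of 0.00590. Meioc and Tdrd1 also rose. The Tdrkh call was kept without knockout replicate 1 and without non-targeted replicate 2, and the calls of Meioc and Tdrd1 without knockout replicate 1 only. Over the germ cell regulators, 10 genes (29.4%) were lower and 4 (11.8%) higher in all knockout clones, beside 14.7% and 14.8% of all genes tested. This list was chosen with earlier results of these data known, and the median log2 fold change of its genes was −0.31. Their median per library, on the same log2 scale, was 0.00, −0.41 and −1.12 in knockout replicates 1 to 3, against 0.20, −0.13 and −0.05 in non-targeted replicates. Knockout replicate 3 was thus the lowest library both in this list and in the median of the 9 genes, and the highest in the fibroblast markers. Without knockout replicate 1, edgeR called 12 of these regulators fallen and 3 risen, beside 14% and 15.1% of all genes tested in that fit.

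On the chromosomes, the 5 nearest tested genes on each side of each member were compared, 90 genes in all. Of these, 14 (15.6%) were lower and 20 (22.2%) higher in all knockout clones, beside 14.7% and 14.8% of all genes tested. Their median log2 fold change was 0.14. edgeR called 0 of the 90. DESeq2 called 4 fallen and 4 risen, beside 3.35% and 5.77% of all genes it tested. The risen ones had log2 fold changes of 0.40 to 0.97. Near Scml2, the predicted gene Gm15262 lies 29.2 kb downstream on the same strand. Gm15262 had 0.997, 0.0827 and 0.0719 CPM in knockout clones, against 8.39, 3.81 and 3.13 CPM in non-targeted clones. It fell by DESeq2 with an adjusted p of 0.000419 (edgeR log2 fold change −3.69 ± 0.81 SE, adjusted p = 0.109). This call was kept in 5 of 6 DESeq2 fits without 1 library, and the fit without non-targeted replicate 1 gave no adjusted p.

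Lrriq4 lies between Lrrc34, which overlaps 3363 of its bases on the opposite strand, and Lrrc31, 6.6 kb away. Lrrc34 had 21.2, 5.54 and 2.80 CPM in knockout clones, against 32.4, 25.7 and 25.6 CPM in non-targeted clones, and Lrrc31 had 2.61, 1.24 and 0.288 CPM against 4.84, 3.74 and 3.41 CPM. Both were lower in all knockout clones and, like Lrriq4, highest in knockout replicate 1 and lowest in replicate 3. With log2 fold changes of −1.50 ± 0.63 for Lrrc34 and −1.53 ± 0.59 for Lrrc31, neither passed the test (edgeR adjusted p = 0.193 and 0.174, DESeq2 0.228 and 0.0874). Without knockout replicate 1 both were called by DESeq2 (6.32e-21 and 0.000453). The counting was reverse-stranded per the file headers.

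The other neighbours that fell by DESeq2 were farther from their members and were named after their values were seen. C330024D21Rik, 3965 kb from Cox7b2, had 4.22 ± 3.60 CPM in knockout clones and 14.2 ± 1.15 CPM in non-targeted ones (SD, n = 3 each), with a log2 fold change of −1.75 ± 0.61 (SE) and a DESeq2 adjusted p of 0.0297. Cenpm, 54.2 kb from Wbp2nl, had −0.68 ± 0.19 (0.0208), and Ccdc160, 990 kb from Usp26, had −0.77 ± 0.21 (0.0451). Of the 6 DESeq2 fits without 1 library, the call of C330024D21Rik was kept without knockout replicates 1 and 3, that of Cenpm without knockout replicate 1 and non-targeted replicate 2, and that of Ccdc160 without knockout replicate 1, with adjusted p up to 0.427, 0.257 and 0.291.

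The nearest genes of the other members given here were not called by either tool, and DESeq2 gave no adjusted p for Gfra1. Beside Usp26 these were Hs6st2 at 1.94 ± 0.64 and Gpc4 at −0.06 ± 0.09, and beside Magea4 Prrg3 at 0.69 ± 0.21 and Gabre at 1.14 ± 0.39. Efhc2 lay between Maoa at 0.04 ± 0.17 and Fundc1 at −0.31 ± 0.14, and Cox7b2 between Gnpda2 at 0.21 ± 0.25 and Gabra4 at 0.75 ± 0.35. Gfra1 at 1.09 ± 0.63 and Hspa12a at −0.04 ± 0.27 flanked Ccdc172, and Sept3 at 0.47 ± 0.15 lay beside Wbp2nl. Cyth1 at 0.40 ± 0.31 lay beside Dnah17, and Pgs1 at −0.12 ± 0.08 overlapped 2289 bases of Dnah17 on the opposite strand. These are log2 fold changes with their SE, of which Fundc1 and Pgs1 were lower and Prrg3, Gabre, Gabra4 and Sept3 higher in all knockout clones.

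**Figure D5:**
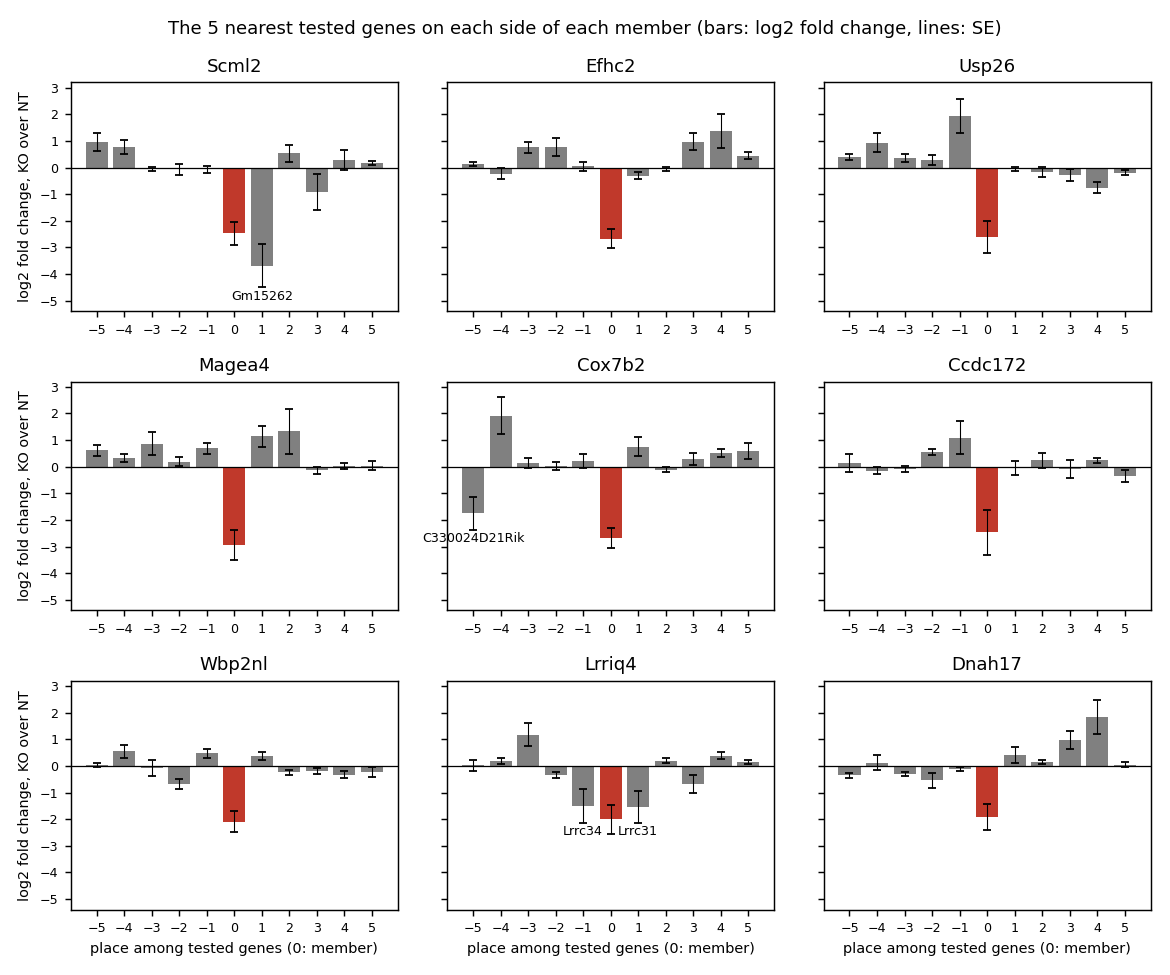
Log2 fold change (Tet1 knockout over non-targeted, edgeR, SE lines) of each of the 9 genes (place 0) and of the 5 nearest tested genes on each side, named where below −1.3. Bars beside the members point both ways, with Gm15262 beside Scml2 at −3.69, C330024D21Rik near Cox7b2 at −1.75, and Lrrc34 and Lrrc31 beside Lrriq4 at −1.50 and −1.53.

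The genes whose log2 CPM followed the mean standardised profile of the 9 genes most closely over the 6 libraries were Mto1 (Pearson's r = 0.999), Wdr36 (0.997), Ccdc160 (0.997), Fbxo27 (0.996) and Platr4 (0.994). This measure takes the shape of a profile and not its size. Mto1 had 22.7 ± 1.04 CPM in knockout clones and 28.1 ± 1.10 CPM in non-targeted ones, and Fbxo27 had 8.31 ± 0.881 CPM in knockout clones and 14.9 ± 1.56 CPM in non-targeted ones (SD, n = 3 each). The log2 fold changes of these 5 genes ran from −0.84 ± 0.16 for Fbxo27 to −0.13 ± 0.06 for Wdr36 (SE). Ccdc160 lies 990 kb from Usp26 on chromosome X. As the profile holds the difference between the groups, the likeness is a description with no test.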

How the data were processed

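RNA-seq counts from 3 Tet1 knockout and 3 non-targeted clones were analysed; groups were taken from the labels. The authors deposited raw whole-number counts per gene. The submitters' processing notes name mm10, DESeq2 1.18.1, HISAT2 2.1.0 and featureCounts 1.5.3. Per the file headers, featureCounts 1.6.2 counted reads over whole gene bodies, introns included, on the reverse strand with GENCODE M15 on GRCm38.p5.

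Genes were kept with filterByExpr (minimum count 10, minimum total 15) and scaled with TMM. edgeR 4.0.16 (R 4.3.3) tested knockout against non-targeted by quasi-likelihood, with Benjamini-Hochberg adjustment over 14664 genes at 0.05. The common biological coefficient of variation was 0.188. DESeq2 1.42.0, limma 3.58.1 (voom), RLE factors, no filter, a replicate block and leaving out each library were alternatives. Fold changes are knockout over non-targeted, and SD is over 3 clones. The fits were tested on simulated data.

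The members and gene lists were chosen with earlier results of these data known. Named were all members and their paralogs, Tet1, up to 3 called genes of each list (or the 2 with the smallest p), the nearest tested genes, the 5 most alike profiles and the 5 next falls. Other genes were named after their values were seen. Of the genes this rule takes, 3 are not reported here. Proteins were not analysed here. The limits given at 3 counts cover counting error only, while SD and SE include differences between clones.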

Additional observations from a re-analysis of the deposited data

How the results depend on the processing

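The sign of the 9 genes' log2 fold changes was fixed by their choice, and their size varied over 17 alternative settings. Of 153 values, 9 moved by more than the SD between clones of a group (log2 CPM, pooled over both groups). Ccdc172 ranged most, from −3.79 to −1.81, and Efhc2 least, from −2.87 to −2.31. Calls depended on the tool and on single libraries. DESeq2 called 1247 genes in all by its own filter, 53 of them on chromosome X (21 fallen and 30 risen among the 562 that edgeR tested), 7 germ cell regulators, 15 fibroblast markers and 1 gene each of the member paralogs, the axonemal genes and the spermatid genes. limma voom called 1 gene, and the fit with no filter on low counts called 159, 9 of them X-linked. With the replicate block, 3 genes were called and none of the members. The replicate numbers gave correlations of deviations of 0.458, 0.109 and −0.024 for the 3 same-numbered pairs, and of −0.464 to 0.459 for the others. Deviations within a group of 3 depend on each other, so these values cannot decide whether samples of the same number were paired. With edgeR, leaving out each library gave 0 to 4404 called genes over all, 0 to 169 on chromosome X, 0 to 3 member paralogs, 0 to 2 MAGE genes, 0 to 6 axonemal genes, 0 to 3 X-linked testis genes, 0 to 2 spermatid genes, 0 to 3 oxidase subunits, 0 to 15 germ cell regulators, 0 to 24 fibroblast markers and 0 to 7 pluripotency markers. The values above 0 arose without knockout replicate 1 only. DESeq2 gave 127 to 4122 genes over all and 6 to 157 on chromosome X in this series, a choice made after seeing the data, with at most 3 member paralogs, 2 MAGE genes, 5 axonemal genes, 3 X-linked testis genes, 2 spermatid genes, 3 oxidase subunits, 15 germ cell regulators, 23 fibroblast markers and 7 pluripotency markers. The cause was not tested. It called 4122, 307 and 262 genes without knockout replicates 1, 2 and 3 (157, 17 and 14 of them X-linked), and 189, 768 and 127 without non-targeted replicates 1, 2 and 3 (7, 48 and 6 X-linked). Its fibroblast marker count was 23, 10 and 3, and 0, 9 and 2, in the same order. At these depths 3 counts stand for 0.187 to 0.248 CPM, which limits Magea4, Cox7b2, Ccdc172 and Wbp2nl in the knockout clones most.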
